A study of Mus musculus with 24 samples.

Results

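The BCL2 family was described in mouse embryonic fibroblasts (MEFs) through 10 genes: the anti-apoptotic members Mcl1, Bcl2 and Bcl2l1, the pore former Bak1, and the BH3-only members Bcl2l11, Bid, Bad, Bbc3 and Pmaip1, with the pore former Bax as the last. The genes were chosen by name, with earlier results of these data known. Of the 10, 9 had a probe set each, among 19661 named genes, and all 9 passed the filter on dim signal. For Bax no probe set was listed under its name, and it was not analysed here. The array values of the other 9 are given below across genotype, transformation and RNA fraction.

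Cells of 6 embryos isolated at stage E13.5 (midgestation) were compared, 3 with 1 intact allele of Eif4e (Eif4e+/-, written Het) and 3 wild type (WT). Eif4e encodes the protein that binds the 5′ cap of an mRNA and brings it to the ribosome. From each embryo there was a culture transformed with Ras and Myc and a matched untransformed primary culture, and all cultures were of early passage and in exponential growth. Each of the 12 cultures gave a total RNA array and an array of RNA from heavy polysomes, which are mRNAs carrying many ribosomes, isolated on a sucrose gradient after cycloheximide. The 24 arrays thus formed 8 groups of 3: transformed Het, transformed WT, untransformed Het and untransformed WT cells, in both fractions. The embryos were taken as separate biological replicates. The labels number the cultures of both genotypes from 1 to 3, but they call every Het culture biological replicate 1, whereas WT cultures run from 1 to 3. A transformed culture of an embryo was 1 culture, so that differences between cultures of one embryo were not replicated. How Ras and Myc were delivered was not given in the sources used here.

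BCL2 proteins decide whether the outer mitochondrial membrane is opened during apoptosis. Bax and Bak1 form the pores, the anti-apoptotic members hold them and the BH3-only proteins in check, and BH3-only proteins are produced or activated by stress signals such as DNA damage, loss of growth factors or oncogene activity. Myc is known to sensitise fibroblasts to apoptosis, and short-lived MCL1 protein has to be made continuously. The mRNAs of Mcl1, Bcl2 and Bcl2l1 have been reported as sensitive to eIF4E, and the comparison of Het with WT cells bears on them.

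Values are log2 intensities made by the authors with RMA. Translational efficiency (TE) is polysomal minus total log2 intensity of the same culture, as the study's design defines it. The fractions lay on different scales, with array means of 3.78 to 3.79 in polysomal RNA and 7.465 to 7.503 in total RNA, and the median TE over genes lay between -3.97 and -3.75. The value of TE itself therefore carries no meaning, and its differences between cultures and its order among genes were read instead. The spread differed as well, with array SDs of 1.15 to 1.44 in polysomal and 1.71 to 1.81 in total RNA. TE also fell across genes with the total RNA level, which is itself subtracted in TE. Its order among genes is therefore given as a description only. A gene was called where the Benjamini-Hochberg adjusted p of limma, taken over 14830 genes, was under 0.05. A difference of 1 on the log2 scale is one doubling of the intensity, and levels of different genes cannot be set against each other because probe sets differ in their response.

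Eif4e total RNA was lower in Het than in WT cultures. In transformed cells its total RNA level was 9.11, 8.85 and 9.21 in the 3 Het cultures, against 9.80, 9.67 and 9.40 in the 3 WT cultures. In untransformed cells it was 8.69, 8.88 and 8.83 in Het cultures, against 9.21, 9.05 and 9.03 in WT cultures. The genotypes did not overlap, as in 10.2% of all genes in transformed and 10.9% in untransformed cells, and the adjusted p of limma was 0.20 and 1.00 in these states. In polysomal RNA the genotypes overlapped in both states: Eif4e averaged 4.49 ± 0.56 in Het and 5.02 ± 0.41 in WT transformed cultures, and 3.85 ± 0.17 in Het and 4.07 ± 0.14 in WT untransformed cultures (SD, n = 3 each). Transformation, averaged over the genotypes, called Eif4e higher by 0.39 in total RNA, and the 0.80 in polysomal RNA did not pass. Its total RNA thus averaged 9.05 in transformed Het and 9.10 in untransformed WT cultures. Of 10 fibroblast markers, 8 were above the 40th percentile of the array on every total RNA array. The mean of these markers lay between 8.32 and 10.11 in transformed cultures and between 10.02 and 10.34 in untransformed ones. After transformation 5 of 10, Thy1, Pdgfrb, Col1a2, Col1a1 and Fn1, were called lower. Of all genes 30.8% were called and 15.8% were called lower. Lum differed by 1.27 without passing (limma adjusted p = 0.0900). The marker means of transformed and untransformed cultures were 6.62 to 7.13 and 6.88 to 7.13 for macrophages, 6.23 to 6.59 and 6.59 to 6.99 for endothelium, 7.48 to 8.51 and 7.33 to 7.52 for epithelium, and 10.53 to 11.04 and 10.58 to 11.35 for proliferation. None of 5 endothelial markers, 1 of 7 macrophage markers and 2 of 4 epithelial markers were above the 40th percentile on every total RNA array, and 1 endothelial, 2 macrophage and 1 epithelial marker were below it on every one. Transformation also called Krt18 (1.76), Cd14 (0.75) and Cdh5 (0.54) higher, and Emcn (-2.35), Ptprc (-0.73), Kdr (-0.67), Csf1r (-0.54) and Mki67 (-0.33) lower in total RNA. Called were thus 3 of 5 tested macrophage, 3 of 3 endothelial, 1 of 3 epithelial and 1 of 2 proliferation markers, beside the same 30.8%. The part of these shifts in the results below was not tested. In bulk RNA, fewer cells of a type and less RNA per cell cannot be told apart.

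Promoter sequences are shown for Mcl1 and Bak1, whose RNA was called between transformed and untransformed cells, and for a site of the kind that Myc with its partner Max is known to bind. The windows of 250 bases upstream of annotated starts came from RefSeq on build GRCm38.p6, in which 8 of the 9 measured genes, all but Pmaip1, had 14 windows. Capitals mark a GC box (GGGCGG, on either strand) or an E-box (CACGTG, its own reverse complement), the motifs searched, where printed whole. Overlapping GC boxes were counted separately. The Bbc3 stretch is cut from a longer window, and the bases before its GC box belong to an overlapping GC box that is cut off.
Mcl1 promoter, chr3:95658471-95658720, plus strand: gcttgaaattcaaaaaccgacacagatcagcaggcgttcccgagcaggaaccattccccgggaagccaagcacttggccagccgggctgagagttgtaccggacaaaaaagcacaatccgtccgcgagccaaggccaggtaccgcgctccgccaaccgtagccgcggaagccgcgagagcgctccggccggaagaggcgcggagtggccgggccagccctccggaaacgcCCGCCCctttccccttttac
Bak1 promoter, chr17:27028628-27028877, minus strand: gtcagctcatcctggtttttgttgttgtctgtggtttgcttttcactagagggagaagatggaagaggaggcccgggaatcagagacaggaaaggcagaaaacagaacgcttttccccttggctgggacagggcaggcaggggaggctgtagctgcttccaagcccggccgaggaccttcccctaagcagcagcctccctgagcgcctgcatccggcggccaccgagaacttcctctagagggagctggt
Bbc3 E-box, with a GC box in its flank, chr7:16310355-16310384, plus strand: gcgGGGCGGgcgCACGTGgcggcgtcgagg
The Mcl1 window held 1 GC box and the Bak1 window held neither motif. The E-box of Bbc3, which started 64 bases upstream of one of its 3 annotated starts, was the only one in the 14 windows, of which 9, from 6 genes, held a GC box. Among 32851 windows of the same length, 6.0% held the E-box and 32.7% the GC box. These matches describe letters in the windows, not binding.

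**Figure D1:**
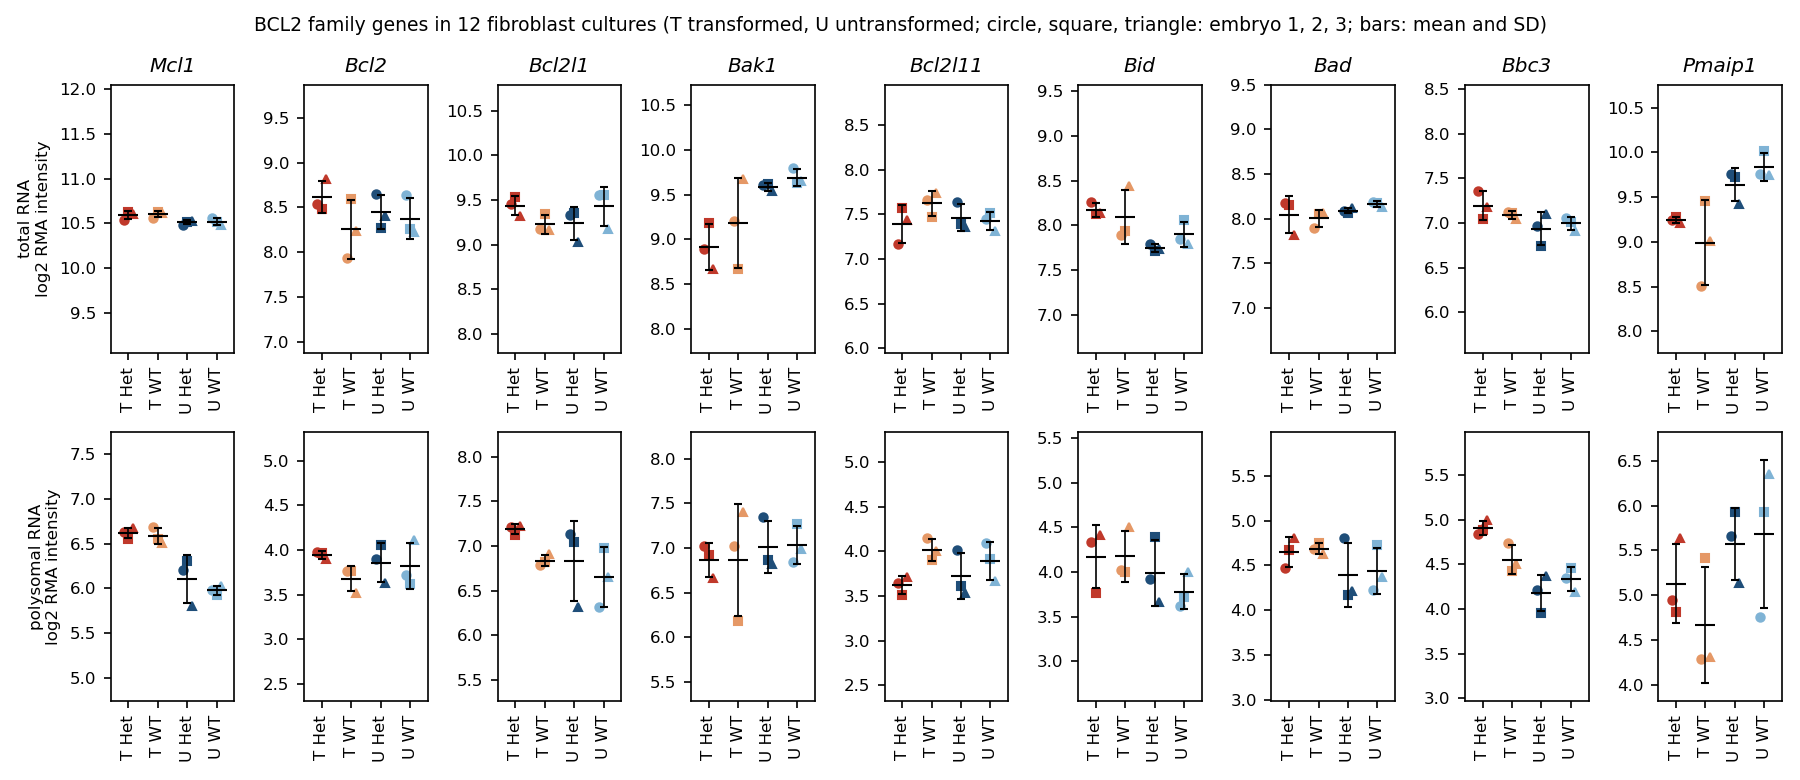
Log2 intensity of the 9 measured BCL2 family genes in total RNA (top row) and polysomal RNA (bottom row). Points are the 3 cultures of a group, bars the mean with its SD, groups run from transformed Het and WT to untransformed Het and WT, and each panel spans 3 log2 units around its own centre. Mcl1 shows the transformed polysomal values (6.51 to 6.69) clear of the untransformed ones (5.80 to 6.31), while its total RNA stays between 10.48 and 10.63.

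Transformation with Ras and Myc was the comparison in which family members passed the test. In total RNA, Pmaip1 and Bak1 fell, and in polysomal RNA Mcl1 rose. The effect of transformation was fitted within embryos and averaged over both genotypes. In total RNA 2 of 9 members were called, both lower, where 30.8% of all tested genes were called and 15.8% were called lower. In polysomal RNA 1 of 9 was called, higher, with 7.72% of all genes called and 3.67% called higher, and in TE 0 of 9, with 2.78% called. These shares are near the background in each case. The median difference over the 9 members was 0.03 in total RNA, equal at this rounding to 0.03 over all genes. It was 0.25 in polysomal RNA, against 0.01 over all genes, and 0.27 in TE, against 0.01.

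Mcl1 encodes an anti-apoptotic protein that holds BAK1 and BIM in check. Its polysomal RNA level was 6.63, 6.56 and 6.68 in transformed Het cultures and 6.69, 6.56 and 6.51 in transformed WT cultures. In untransformed cells it was 6.20, 6.31 and 5.80 in Het cultures and 5.99, 5.93 and 6.03 in WT cultures. Each of the 6 transformed cultures was thus above each of the 6 untransformed ones, and Mcl1 was the 1 member of 9 with such a separation in polysomal RNA, which 5.72% of all genes showed. The difference was 0.56 ± 0.13 (SE, 6 embryos; limma adjusted p = 0.0414). Within embryos it was 0.42, 0.25 and 0.87 in Het and 0.70, 0.64 and 0.49 in WT, positive in 6 of 6, as in 7.32% of all genes. The call rested on all but one embryo: leaving out any embryo other than WT embryo 3 gave an adjusted p between 0.0812 and 0.165. It was also lost after quantile normalisation (0.0524), with limma's trend and robust options (0.129) and without the 2 polysomal arrays of smallest spread (0.0957). The difference itself lay between 0.47 and 0.63 over all 15 alternatives.

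The total RNA of Mcl1 hardly moved. It was 10.54, 10.62 and 10.61 in transformed Het cultures and 10.56, 10.63 and 10.62 in transformed WT cultures. In untransformed cells it was 10.48, 10.52 and 10.53 in Het cultures and 10.56, 10.52 and 10.48 in WT cultures. All 6 embryos were higher after transformation, by 0.004 to 0.14, as were 16.6% of all genes, and the difference of 0.08 ± 0.05 did not pass (limma adjusted p = 0.240). Its SD within groups was 0.04, the smallest of the 9 members in total RNA. TE of Mcl1 averaged -3.99 ± 0.10 in transformed and -4.47 ± 0.20 in untransformed cultures (SD, n = 6 each), without overlap, a separation found in 3.59% of all genes and in no other member. The difference of 0.48 ± 0.14 was positive in all 6 embryos, against 6.53% of all genes, and did not pass (limma adjusted p = 0.134).

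Bak1, one of the pore formers, had a total RNA level of 8.90, 9.18 and 8.67 in transformed Het cultures and 9.21, 8.67 and 9.68 in transformed WT cultures. In untransformed cells it was 9.61, 9.62 and 9.54 in Het cultures and 9.80, 9.63 and 9.65 in WT cultures. Transformed WT embryo 3 lay among the untransformed cultures and the other 5 transformed cultures lay below all of them. The difference was -0.59 ± 0.13 (limma adjusted p = 0.0143), an intensity ratio of 0.665, and was negative in 5 of 6 embryos, with 0.03 in WT embryo 3. Without Het embryo 1 the adjusted p was 0.0515 and without Het embryo 3 it was 0.0583. In polysomal RNA Bak1 averaged 6.87 ± 0.41 in transformed and 7.02 ± 0.23 in untransformed cultures, a difference of -0.15 ± 0.20 (limma adjusted p = 0.757). TE of Bak1 differed by 0.43 ± 0.16 (limma adjusted p = 0.201), positive in 5 of 6 embryos.

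Pmaip1 encodes NOXA, a BH3-only protein that binds MCL1 and is a target of p53. Its total RNA level was 9.24, 9.28 and 9.21 in transformed Het cultures and 8.51, 9.46 and 9.004 in transformed WT cultures. In untransformed cells it was 9.76, 9.72 and 9.43 in Het cultures and 9.76, 10.02 and 9.74 in WT cultures. All 6 embryos were lower after transformation, as were 15.4% of all genes, and the states overlapped in only the 9.46 of transformed WT embryo 2 against the 9.43 of untransformed Het embryo 3. The difference was -0.62 ± 0.10 (limma adjusted p = 0.00425), and it was called under each of 15 alternative settings. In polysomal RNA the difference was -0.73 ± 0.27 (limma adjusted p = 0.165), with Het embryo 3 higher by 0.50 and the other 5 embryos lower. TE of Pmaip1 differed by -0.11 ± 0.27 and ranged over embryos from -1.31 to 0.77, the widest range of any member in TE.

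**Figure D2:**
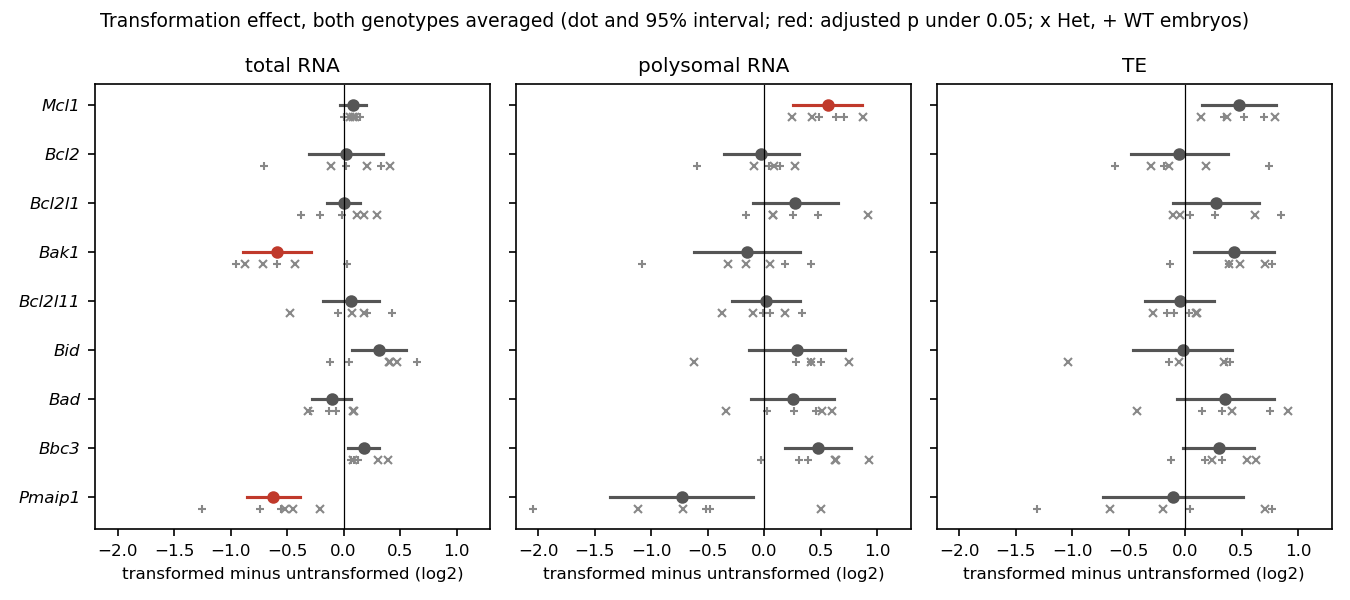
Transformed minus untransformed difference (log2) of each gene in total RNA, polysomal RNA and TE, with 1 mark per embryo (x for Het, + for WT) and the limma estimate with its 95% interval, red where called. Pmaip1 (-0.62) and Bak1 (-0.59) lie below 0 in total RNA, and all 6 embryos of Mcl1 lie above 0 in polysomal RNA.

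Of the other BH3-only members none passed in any of the 3 measures. Bbc3 encodes PUMA, which p53 induces. Its total RNA averaged 7.14 ± 0.12 in transformed and 6.96 ± 0.13 in untransformed cultures, close to the array's 40th percentile of 6.80 to 6.93. It was higher in all 6 embryos by 0.06 to 0.39, and the difference of 0.18 ± 0.06 did not pass (limma adjusted p = 0.0556). Its polysomal level averaged 4.73 ± 0.23 in transformed and 4.26 ± 0.18 in untransformed cultures, with 5 of 6 embryos higher, and the difference of 0.47 ± 0.13 did not pass (limma adjusted p = 0.0599). Bid, which is cut by caspase-8, averaged 8.13 ± 0.20 in transformed and 7.82 ± 0.13 in untransformed total RNA. Its difference of 0.31 ± 0.10 did not pass (limma adjusted p = 0.0550), with WT embryo 2 at -0.12 and the other 5 embryos higher. Both lie near the threshold: in total RNA Bid was called without WT embryo 2 (adjusted p = 0.0363) or WT embryo 3 (0.0489), and Bbc3 without Het embryo 3 (0.0461). Without the embryo block Bid in total RNA (0.0236) and Bbc3 in polysomal RNA (0.0202) were called, and so they were with array weights (0.0400 and 0.0479). Quantile normalisation (0.0379) and a stricter filter (0.0487) also called Bid, and the trend and robust options called Bbc3 in total RNA (0.0447).

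Bad, whose activity growth factor signalling blocks by phosphorylation, differed by -0.10 ± 0.07 in total RNA and by 0.25 ± 0.16 in polysomal RNA. Bcl2l11, which encodes BIM, differed by 0.06 ± 0.10 and 0.01 ± 0.13 in the same order. Among anti-apoptotic members, Bcl2 differed by 0.03 ± 0.14 in total RNA and -0.03 ± 0.14 in polysomal RNA. Bcl2l1, which encodes BCL-XL, averaged 9.33 ± 0.15 in transformed and 9.33 ± 0.21 in untransformed total RNA, with an interval of the difference from -0.15 to 0.15. Its polysomal level averaged 7.01 ± 0.20 in transformed and 6.74 ± 0.37 in untransformed cultures, and the difference of 0.27 ± 0.16 did not pass (limma adjusted p = 0.415).

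Between Het and WT cells 0 of 9 members were called by limma in each of 6 comparisons, in total RNA, polysomal RNA and TE of transformed and untransformed cells. Among all genes 0.0472% were called in total RNA of transformed cells and 0.0% in the other 5 comparisons. At an unadjusted p under 0.05 the only member was Bcl2l11 in polysomal RNA of transformed cells, where 3.22% of all genes had such a p. That share was 1.45% to 9.3% over the 6 comparisons. With 3 embryos against 3, the smallest two-sided p of an exact permutation test is 0.10. That test was also run for each member.

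For the anti-apoptotic members the intervals show what size of difference the design leaves. Mcl1 total RNA averaged 10.59 ± 0.05 in transformed Het and 10.60 ± 0.04 in transformed WT cultures (SD, n = 3 each), a difference of -0.01 with a 95% interval from -0.14 to 0.12. In untransformed cells it averaged 10.51 ± 0.02 in Het and 10.52 ± 0.04 in WT cultures, again with an interval from -0.14 to 0.12. TE of Mcl1 differed between Het and WT by 0.05 in transformed cells (-0.34 to 0.44) and by 0.13 in untransformed cells (-0.26 to 0.53). TE of Bcl2 differed by -0.09 (-0.64 to 0.46) in transformed and by -0.03 (-0.58 to 0.52) in untransformed cells. TE of Bcl2l1 differed by 0.14 (-0.34 to 0.62) in transformed and by 0.37 (-0.11 to 0.85) in untransformed cells. The intervals of TE thus reach from moderate losses to moderate gains, and only total RNA of Mcl1 is held within narrow limits. Polysomal values of Bcl2 (3.52 to 4.12), Bcl2l11 (3.51 to 4.15) and Bid (3.62 to 4.51) lay close above the array's 40th percentile of 3.13 to 3.32, where the signal is dim.

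**Figure D3:**
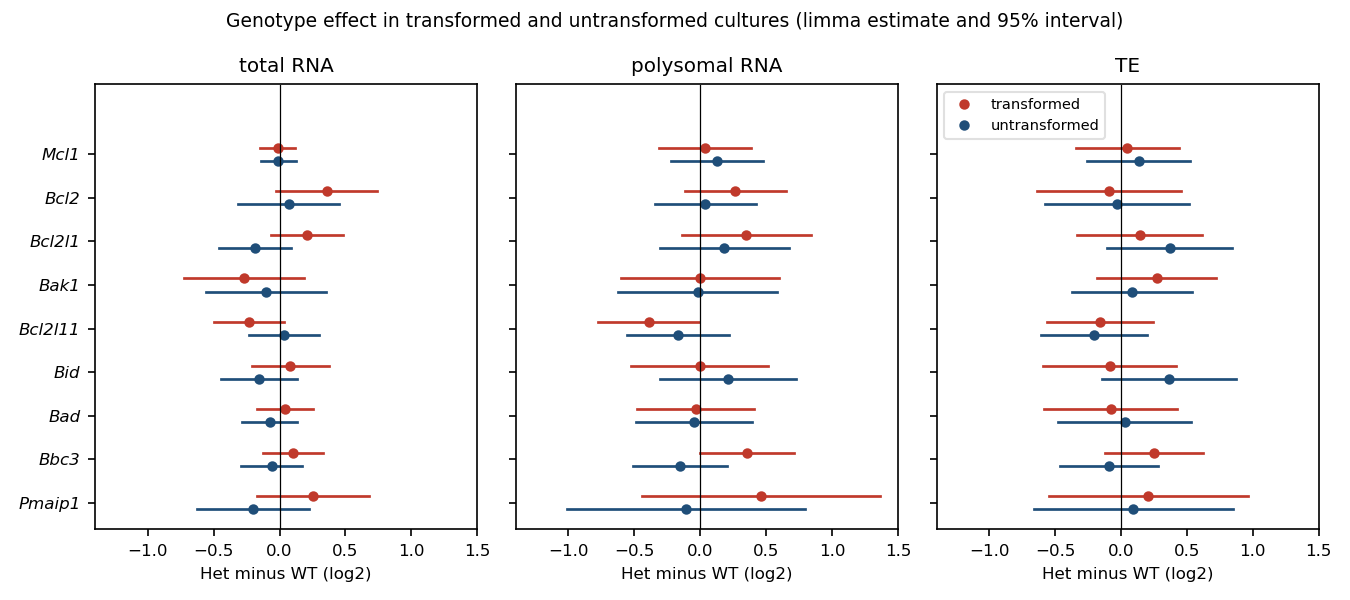
Het minus WT difference (log2) of the 9 genes with its 95% interval from limma, for transformed and untransformed cells in total RNA, polysomal RNA and TE. Only the interval of Bcl2l11 in transformed polysomal RNA (-0.78 to -0.01) leaves out 0, and no difference passed after adjustment.

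In polysomal RNA of transformed cells the genotypes did not overlap for 4 of 9 members, where 8.51% of all genes did not overlap. Bcl2l11 was lower, at 3.64, 3.51 and 3.72 in Het cultures against 4.15, 3.90 and 4.004 in WT cultures, a difference of -0.39 ± 0.18 (limma adjusted p = 1.00). Bcl2 was higher, at 3.98, 3.96 and 3.90 in Het cultures against 3.77, 3.76 and 3.52 in WT cultures. Bcl2l1 was higher too, at 7.21, 7.12 and 7.23 in Het cultures against 6.79, 6.82 and 6.90 in WT cultures. Bbc3 had 4.84, 4.89 and 4.995 in Het cultures against 4.74, 4.42 and 4.50 in WT cultures. The exact permutation p was 0.10 for each of these 4, and none passed limma's adjusted threshold. In total RNA of transformed cells and in their TE 0 of 9 members separated the genotypes, against 10.2% and 8.3% of all genes.

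In untransformed cells 2 of 9 members separated the genotypes in total RNA, where 10.9% of all genes did. Bak1 was 9.61, 9.62 and 9.54 in Het cultures against 9.80, 9.63 and 9.65 in WT cultures. Bad was 8.09, 8.06 and 8.12 in Het cultures against 8.19, 8.18 and 8.13 in WT cultures. In both genes the nearest cultures almost touched, at 9.617 in Het and 9.626 in WT for Bak1 and at 8.124 in Het and 8.133 in WT for Bad. In polysomal RNA 0 of 9 separated (5.74% of all genes), and in TE 1 of 9 (5.58%), Bbc3, at -2.75, -2.78 and -2.73 in Het cultures against -2.71, -2.56 and -2.72 in WT cultures. The effect of transformation was also compared between genotypes in 1 model. For this difference 0 of 9 members were called by limma in any measure, with 0.0% of all genes called, and Bcl2l1 in total RNA was the only member with an unadjusted p under 0.05, which 4.88% of all genes had. Its 3 Het embryos were higher after transformation and its 3 WT embryos lower, a split shown by 2.14% of all genes.

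Within a culture the members stood far apart in TE. TE was ranked among the 14830 genes of each culture, and the percentile is given as the median over 12 cultures. Bak1 stood at 97.9, Bcl2l1 at 97.8 and Bbc3 at 96.5, and all 3 were above the median gene in 12 of 12 cultures. Bad stood at 70.3, Bcl2l11 at 61.0 and Bid at 43.5. Mcl1 at 35.3, Pmaip1 at 34.3 and Bcl2 at 23.1 were lowest, and Mcl1 and Bcl2 were below the median gene in all 12. The range over cultures was 91.3 to 99.2 for Bak1, 83.0 to 98.7 for Bcl2l1 and 95.1 to 98.7 for Bbc3, so these 3 did not differ in order beyond their spread. It was 21.8 to 44.2 for Mcl1, 21.7 to 78.9 for Pmaip1 and 15.2 to 33.8 for Bcl2, which overlap as well. The total RNA of Bbc3 was dim, at -0.06 to 0.47 from the array's 40th percentile. Polysomal RNA of Bcl2 was dim too, at 0.27 to 0.96 above it. Dim signal enters TE, and its part in these ranks was not tested.

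The median percentile of Mcl1 was 42.5 in transformed and 26.4 in untransformed cultures, and that of Bad was 76.2 and 51.1 in the same states. Bcl2 stood at 22.9 in transformed and 23.1 in untransformed cultures. Across genes TE fell with the total RNA level, with r between -0.64 and -0.39 in the 12 cultures. Total RNA is itself subtracted in TE, so a negative r follows in part from the definition. It does not show that abundant mRNAs were loaded less. These correlations run over genes that share arrays, and the part of the level or of probe response in the order of members was not tested.

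**Figure D4:**
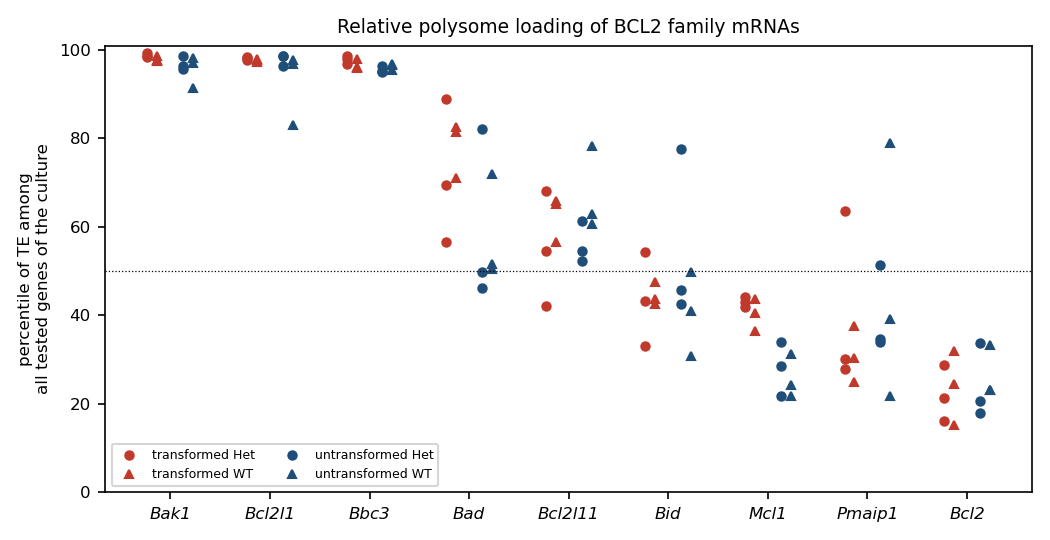
Percentile of TE among 14830 genes for each of the 9 genes, with 1 point per culture and transformed cultures coloured apart from untransformed ones. Bak1, Bcl2l1 and Bbc3 sit near the top in all 12 cultures, and Mcl1 and Bcl2 below the median gene in all 12. The total RNA of Bbc3 and the polysomal RNA of Bcl2 were dim.

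Among 36 pairs of members the TE of Bak1 correlated most with that of Bcl2l1 (r = 0.76) and next with that of Mcl1 (r = 0.74) over the 12 cultures. The same pairs had 0.18 and -0.21 in polysomal RNA and -0.09 and -0.55 in total RNA. These are descriptions over cultures that share embryos and arrays and pool both states. The lowest TE of both Bak1 (-2.96) and Bcl2l1 (-3.24) was that of untransformed WT embryo 1. Its polysomal array had the smallest spread (SD 1.15). The part of this array and of the states in r was not tested. Over the same 12 cultures the genes whose total RNA was most like that of Mcl1 were Afdn (r = 0.937), Etv1 (0.923) and Klhl24 (0.922). For Bcl2 they were Lamc3 (0.884), Fam107a (0.878) and Trarg1 (0.868), and for Bcl2l1 they were Rpusd1 (0.889), Ctsg (0.877) and Rarres1 (0.864). These are the highest r of 14830 genes searched over 12 values each, and such a search finds high r by itself. Total RNA of Mcl1 also varied little, with an SD within groups of 0.04.

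Other genes linked to apoptosis, among them death receptors, were read from lists. Of 16 further BCL2 family genes 9 were tested, of 22 death effectors 18, and of 11 regulators of the family 10. In total RNA, transformation called 2 of 9, 4 of 18 and 6 of 10 in the order given, against 30.8% of all genes. The median differences were 0.01, 0.02 and 0.08, beside 0.03 over all genes.

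Among further family genes, Bnip3, a mitochondrial protein of mitophagy induced by low oxygen, rose by 0.70 ± 0.20 (limma adjusted p = 0.0383). Bok, a BAX-like protein, fell by 0.30 ± 0.07 (0.0216). Among effectors Apaf1, the scaffold on which caspase-9 is activated, rose by 0.52 ± 0.07 (0.00229). Casp6, an executioner caspase, and Aifm1, a mitochondrial oxidoreductase, rose by 0.33 and 0.19, and Vdac1, a channel of the outer membrane, fell by 0.18. Foxo3, a transcription factor that activates Bcl2l11 and Bbc3, rose by 0.48 ± 0.07 (0.00272). The ubiquitin ligase genes Fbxw7 and Huwe1, whose proteins target MCL1, rose by 0.26 and 0.16. Akt1, the kinase that phosphorylates BAD, fell by 0.39, the stress factor Ddit3 fell by 0.46 and E2f1 fell by 0.17.

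In polysomal RNA 0 of 9 further family genes, 1 of 18 effectors and 1 of 10 regulators were called between the states, beside 7.72% of all genes. Fbxw7 rose by 0.91 ± 0.13 (limma adjusted p = 0.00739). Htra2, a mitochondrial protease that antagonises inhibitors of apoptosis, rose by 0.81 ± 0.14 in polysomal RNA (0.0124) and by 0.96 ± 0.16 in TE (0.0178), while its total RNA differed by -0.15 ± 0.06 (0.104). Htra2 was the only gene of the 3 lists called in TE, where 2.78% of all genes were called. The nearest in the other lists were Akt1 (0.72; adjusted p = 0.0544) and Fbxw7 (0.65; 0.0570) among regulators, and Bok (0.29) and Bnip3 (0.44) among family genes. Of the family genes in polysomal RNA, Bnip3 (1.14; adjusted p = 0.0911) and Bcl2l13 (0.17) had the smallest p.

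Between genotypes 0 genes of these 3 lists were called by limma in any of the 6 comparisons. Counts at an unadjusted limma p under 0.05 follow for family, effectors and regulators, with the share of all genes. In total RNA they were 2 of 9, 4 of 18 and 0 of 10 in transformed cells (9.3%). In untransformed cells they were 2 of 9, 1 of 18 and 0 of 10 (2.37%). In polysomal RNA of transformed cells they were 1 of 9, 2 of 18 and 0 of 10 (3.22%). All were 0 in polysomal RNA of untransformed cells (1.67%) and in TE of transformed (2.9%) and untransformed cells (1.45%). The 2 genes of each list with the smallest p are given by their Het minus WT difference. In total RNA of transformed cells these were Bik (0.22) and Bcl2l12 (0.15) of the family, Casp6 (-0.38) and Tnfrsf10b (-0.25) of the effectors, and Usp9x (-0.13) and E2f1 (0.09) of the regulators. In total RNA of untransformed cells they were Bcl2l2 (-0.23) and Bik (-0.18), Tnfrsf10b (-0.27) and Birc5 (0.32), and Huwe1 (0.11) and Ddit3 (-0.20). Bik, a BH3-only gene, thus had opposite signs in the 2 states, and the difference of 0.40 between its transformation effects did not pass (limma adjusted p = 0.916). Tnfrsf10b, a death receptor for TRAIL, had the same sign in both states.

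In polysomal RNA of transformed cells the 2 genes were Bok (0.42) and Bnip3 (0.57), Casp6 (-0.52) and Fadd (0.66), and Foxo1 (-0.33) and Fbxw7 (-0.35). In untransformed cells they were Hrk (-0.26) and Bcl2l12 (-0.22), Htra2 (0.48) and Aifm1 (0.52), and Foxo1 (-0.40) and Trp73 (-0.21). In TE of transformed cells they were Bnip3 (0.53) and Bok (0.19), Birc5 (-0.49) and Xiap (0.50), and Fbxw7 (-0.42) and Akt1 (0.28). In TE of untransformed cells they were Bcl2l2 (0.46) and Becn1 (0.26), Aifm1 (0.52) and Fas (0.51), and Foxo1 (-0.49) and Trp73 (-0.26). Casp6 was lower in Het than in WT transformed cells in both fractions, without passing in either (limma adjusted p = 0.266 in total RNA and 1.00 in polysomal RNA).

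For the difference of the transformation effect between Het and WT, 0 genes of the lists were called by limma in any measure. The smallest p values belonged in total RNA to Bik (0.40) and Bcl2l12 (0.19), Xiap (-0.39) and Casp6 (-0.44), and Usp9x (-0.18) and Fbxw7 (0.15), given as Het minus WT differences. In polysomal RNA they belonged to Bok (0.57) and Hrk (0.30), Birc5 (-0.89) and Aifm1 (-0.80), and Trp73 (0.27) and E2f1 (-0.27). In TE they belonged to Bok (0.38) and Bcl2l13 (0.41), Xiap (0.76) and Birc5 (-0.65), and Trp73 (0.35) and E2f1 (-0.31).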

How the data were processed

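Total and polysomal RNA was hybridised to whole-transcript mouse arrays (Affymetrix Gene 1.0 ST). The deposited values are log2 intensities that the authors made with RMA, per the series' design text and the submitters' processing notes; neither the RMA version nor the chip definition is known here. Of 25668 probe sets, 20777 had 1 symbol in the platform annotation, 232 had several and 4659 had none. The brightest probe set stood for a gene. Tested were the 14830 genes that exceeded their array's 40th percentile on 3 or more arrays. Limma 3.58.1 in R 4.3.3 fitted the 4 groups for Het against WT, and the embryo as a block for transformation, since the labels give both cultures of an embryo the same number. Deviations of same-numbered cultures from their group means had r from -0.06 to 0.22 (total) and from -0.44 to 0.06 (polysomal). Exact permutation tests used scipy 1.17.1. The fit was checked on simulated data. Alternatives were other normalisation, filters, probe set rules, variance models, blocks and leaving out embryos. The number of arrays limits the precision. Named were all members, called list genes (the 2 of smallest p where a list had none) and the 3 genes most correlated with each anti-apoptotic member. Members and lists were chosen with earlier results of these data known.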

Additional observations from a re-analysis of the deposited data

Results flagged for a closer look

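The total RNA of Bcl2l1 was flagged because its transformation differences had opposite signs in the embryos of the 2 genotypes. Its level was higher by 0.12, 0.18 and 0.29 in the 3 Het embryos, and the 3 WT embryos had -0.38, -0.21 and -0.01. The effect did not pass in either genotype alone (limma adjusted p = 0.18 in Het and 0.17 in WT). Transformed cultures averaged 9.44 ± 0.11 and untransformed ones 9.24 ± 0.18 in Het, and 9.23 ± 0.10 and 9.43 ± 0.22 in WT (SD, n = 3 each). The difference between the genotypes' effects was 0.40 ± 0.13 (SE), with an unadjusted p of 0.0162 from limma's model over all genes and an adjusted p of 0.916, so it did not pass. Such a split was present in 2.14% of the 14830 genes.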

How the results depend on the processing

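No difference called in the main setting changed sign under an alternative, and 35 of 45 such values were called again. Of 1613 values of differences that were not called, 141 turned in sign and 12 became called. The transformation count in total RNA was 2 in the main setting, 1 without Het replicate 1 and 1 to 3 over leaving out each embryo. In polysomal RNA the count was 1, and it was 0 under quantile normalisation, under limma's trend and robust options and without the 2 polysomal arrays of smallest spread, with 0 to 1 over leaving out each embryo. It was 2 with array weights. In TE it was 0 in the main setting and 1, Mcl1, with array weights (adjusted p = 0.0412). Without the replicate block the polysomal count was 2 and the TE count 1. With the embryo number as a block across genotypes, 0 members were called in each of the 6 comparisons of Het with WT, as without it; those numbers name different embryos. Among all genes, transformation calls ranged from 2879 to 5140 in total RNA (main setting 4569), 306 to 2746 in polysomal RNA (1145) and 94 to 1540 in TE (413), and Het against WT calls in total RNA of transformed cells from 0 to 51 (7). Without the filter on dim genes the median TE percentile was 48.9 for Bcl2l11, 95.4 for Bak1 and 92.4 for Bbc3, since dimmer genes joined the ranking. Elsewhere the cause of a change was not tested. Dim polysomal signal limits Bcl2, Bcl2l11 and Bid, dim total RNA signal limits Bbc3, and 3 embryos a genotype limit every comparison of Het with WT.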
